A study of Mus musculus with 6 samples.

Results

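The Clec genes encode proteins with a C-type lectin domain, a fold that in many family members binds sugars in a calcium-dependent way. The 30 protein-coding mouse genes whose GENCODE symbol begins with Clec and a digit were examined among 49585 gene IDs in RNA-seq of KMT2A-MLLT3 leukemia cells. All 30 were in the table, and 22 lie on chromosome 6. Many Clec proteins are receptors of myeloid cells that sense fungi, mycobacteria and damaged cells. Some couple to an adaptor with an activating motif (the ITAM of the Fc receptor gamma chain or DAP12) and signal through the kinase Syk, some carry an inhibitory motif (ITIM) in their own tail, and others take up glycoproteins, are secreted or have no known lectin role.

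The cells were mouse acute myeloid leukemia driven by the fusion KMT2A-MLLT3, which all groups share. Marrow of sick mice was transduced with DOT1L, a histone methyltransferase, sorted into low and high expressing populations and harvested 3 days after the sort, in culture with IL-3, IL-6 and stem cell factor. The groups are NT, DOT1L Low and DOT1L High, each with 1 library of K3174 and 1 of K3117, numbers read here as 2 leukemias. The labels do not expand NT, nor do they say whether NT cells were transduced or sorted. Since the labels do not say that the K numbers are separate mice, the p-values describe the scatter of these libraries, which may be technical.

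Library totals were between 22908445 and 33265848 counts, so that 3 counts in a library correspond to 0.0900 to 0.133 CPM (counts scaled to library size, after TMM adjustment). Dot1l itself was at 158.0, 152.0 and 136.4 CPM in NT, Low and High of K3174, and at 127.8, 183.7 and 149.8 CPM in NT, Low and High of K3117. Its fitted log2 difference was 0.00 ± 0.15 (SE) for High against NT, so its counts did not separate the labels, and whether reads of the introduced DOT1L fall on this gene is not given in the sources used here. The level of 10 neutrophil genes, here called granule genes, differed widely between libraries. Their summed CPM was 119 and 23.9 in NT (K3174 and K3117), 1270 and 112 in Low, and 7031 and 1587 in High. The name is loose for 3 of them, S100a8, S100a9 and Itgb2l. In High, S100a8 and S100a9 were at 1819 and 2441 CPM in K3174 and at 428 and 496 CPM in K3117. Of those 10 genes, 9 were higher in High than in NT. Here and in the lists below, higher and lower mean an adjusted p below 0.05 in edgeR. Among all tested genes, 10.0% were called higher and 7.32% lower in High against NT. For 10 monocyte and macrophage genes the sums were 922 and 1544 CPM in NT (K3174 and K3117), 1199 and 1459 CPM in Low, and 2234 and 3169 CPM in High, with 6 genes higher and 2 lower in High than in NT. For 10 dendritic cell genes, 7 of them tested, the sums were 48.4 and 119.5 CPM in NT (K3174 and K3117), 22.0 and 51.3 CPM in Low, and 14.6 and 39.2 CPM in High, with 4 lower in High than in NT. Of 8 platelet and megakaryocyte genes, 7 of them tested, 2 were higher in High than in NT, and the sums were 36.6 and 32.4 CPM in NT (K3174 and K3117), 17.8 and 31.5 CPM in Low, and 67.3 and 50.6 CPM in High. Of the 10 dendritic cell genes, Cd209a had no count in any library and 5 in all stayed under 1 CPM in every library. Of 8 T and NK cell genes, 2 (Cd3e and Ncr1) had no count and 5 in all stayed under 1 CPM in every library. The sums were between 67.7 and 95.7 CPM and came mainly from Cd28 and Nkg7. Of the 3 tested, 1 (Nkg7) was higher and 2, with Cd28 among them, were lower in High than in NT. Of 5 B cell genes, 2 had no count and 4 in all stayed under 1 CPM, with sums of 9.56 to 17.2 CPM that came mainly from Cd79b. Of 8 endothelial and stromal genes, 3 (Tek, Col3a1 and Lum) had no count and 7 in all stayed under 1 CPM, with sums of 115 to 213 CPM that came mainly from Pecam1. Cd28, Nkg7, Cd79b and Pecam1 are named because of their values. In bulk RNA, fewer cells of a type and less RNA per cell cannot be told apart, and the part of these marker genes in the Clec results was not tested.

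Of the 30 genes, 13 were expressed, taken as at least 1 CPM in both libraries of at least 1 label. At a threshold of 0.5 CPM the number was 15, and at 5 CPM it was 9. Clec4a1 and Clec4a3 count as expressed through the High libraries alone. The statistical test covered 16 genes, the 13 expressed ones plus Clec18a, Clec2g and Clec4b2. Clec4b2 entered the test through its Low and High libraries, since its NT libraries were at or near 0. Per kilobase of exon, averaged over the 6 libraries, the highest level was that of Clec2i at 48.2 CPM per kb, followed by Clec12a at 34.5 CPM per kb. Clec4e (15.4), Clec5a (13.9), Clec4n (13.8) and Clec4d (9.40 CPM per kb) came next. Clec4a2 averaged 5.36, Clec11a 3.44, Clec16a 3.17, Clec10a 2.82, Clec2d 2.40 and Clec4b2 1.51 CPM per kb. Clec4a3, Clec4a1, Clec18a and Clec2g stood below 1 CPM per kb. The order of these means is a description and was not tested.

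**Figure D1:**
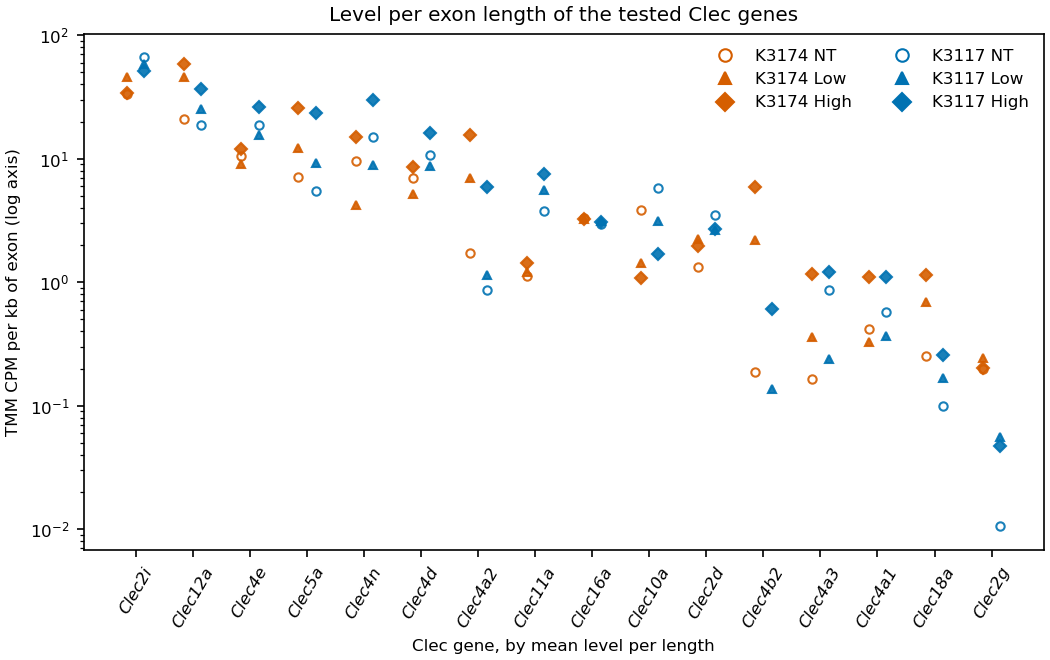
Level per kilobase of exon (CPM per kb, log axis) of the 16 tested Clec genes in each of the 6 libraries (K3117 NT of Clec4b2, with no count, is not drawn). Clec2i and Clec12a average 48.2 and 34.5 CPM per kb, and Clec2g averages 0.126 CPM per kb.

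The summed CPM of the 30 genes was 376, 569 and 723 in NT, Low and High of K3174, and 527, 523 and 731 in NT, Low and High of K3117. High had the largest sum in both leukemias, while Low was above NT in K3174 and close to it in K3117. Clec12a, Clec2i and Clec4e together made up between 67.3% and 77.8% of the sum.

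Of the 16 tested genes, 7 rose in DOT1L High against NT (Clec4b2, Clec4a2, Clec5a, Clec18a, Clec12a, Clec4n and Clec11a) and 1, Clec10a, fell, by edgeR's quasi-likelihood test with Benjamini-Hochberg adjustment over 15812 genes. Among all tested genes, 10.0% were called higher and 7.32% lower in this contrast. The median log2 difference of the 16 genes was 0.77, against -0.01 over all genes tested. Activating, inhibitory and secreted members are all among the 7. Without the leukemia as a block in the fit, 1 of the 7, Clec5a, stayed past the threshold (adjusted p = 0.016) and Clec10a did not. At an unadjusted p under 0.05, that fit had 5 Clec genes higher and 1 lower, where 3142 of all 15812 tested genes had such a p.

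**Figure D2:**
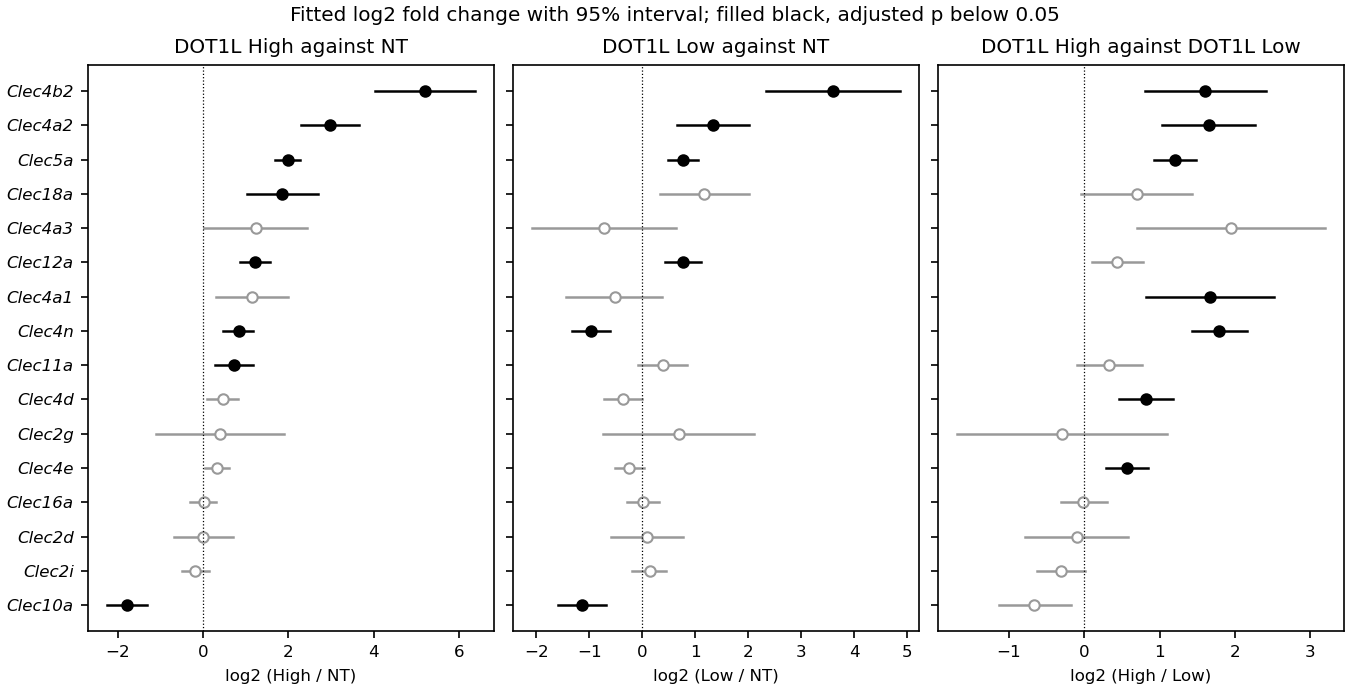
Fitted log2 fold changes with 95% confidence intervals of the 16 tested Clec genes for High against NT, Low against NT and High against Low. Clec4b2 and Clec4a2 have the largest positive values for High against NT (5.20 and 2.98), and Clec10a has the lowest (-1.79).

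Clec4a2, Clec4b2, Clec5a and Clec12a were called higher in both High and Low than in NT, and their levels were ordered NT, Low, High in both leukemias. The summed level of the neutrophil granule genes, given above, had the same order of labels in both leukemias, and its part in the rise of these genes was not tested. The sequences from 250 bases before to 50 after their RefSeq starts (build GRCm38.p6) are shown because these 4 genes share that pattern, in the direction of the gene, with capitals marking matches to the core motifs of PU.1 (AGGAAG), C/EBP (TTGCNNAA) and RUNX (TGTGGTT), myeloid transcription factors, on either strand.
Clec5a, chr6:40585756-40586055, minus strand: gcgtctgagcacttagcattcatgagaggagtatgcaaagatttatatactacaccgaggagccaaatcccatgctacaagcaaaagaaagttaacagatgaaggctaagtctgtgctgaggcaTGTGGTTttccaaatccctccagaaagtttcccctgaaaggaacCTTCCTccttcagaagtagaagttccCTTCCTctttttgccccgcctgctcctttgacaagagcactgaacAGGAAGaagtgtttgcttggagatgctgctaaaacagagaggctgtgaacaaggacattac
Clec12a, chr6:129349994-129350293, plus strand: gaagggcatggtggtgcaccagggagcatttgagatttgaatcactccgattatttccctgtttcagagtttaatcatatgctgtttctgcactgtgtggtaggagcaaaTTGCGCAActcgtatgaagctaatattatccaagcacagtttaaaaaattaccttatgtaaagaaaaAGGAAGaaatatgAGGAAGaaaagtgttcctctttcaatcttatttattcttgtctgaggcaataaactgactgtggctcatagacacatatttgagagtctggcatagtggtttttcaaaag
Clec4a2, chr6:123122440-123122739, plus strand: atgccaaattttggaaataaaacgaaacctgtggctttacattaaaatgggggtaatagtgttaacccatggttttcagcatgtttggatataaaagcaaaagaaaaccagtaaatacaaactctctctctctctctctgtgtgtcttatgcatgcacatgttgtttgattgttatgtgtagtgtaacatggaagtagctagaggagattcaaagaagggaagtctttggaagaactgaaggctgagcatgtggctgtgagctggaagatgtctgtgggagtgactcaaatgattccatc
Clec4b2, chr6:123172773-123173072, plus strand: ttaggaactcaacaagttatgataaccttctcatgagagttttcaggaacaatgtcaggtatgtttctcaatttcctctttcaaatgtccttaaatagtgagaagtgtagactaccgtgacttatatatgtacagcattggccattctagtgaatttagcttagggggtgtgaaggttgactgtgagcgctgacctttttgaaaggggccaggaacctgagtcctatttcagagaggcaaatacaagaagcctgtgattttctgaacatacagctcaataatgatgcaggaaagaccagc
The Clec5a window holds AGGAAG 3 times, on the minus strand relative to the gene (CTTCCT) at positions -82 and -56 and on the plus strand at -11 from the start, and TGTGGTT at -126. The Clec12a window holds AGGAAG at -73 and -60 and the palindrome TTGCGCAA at -140. The Clec4a2 and Clec4b2 windows hold none of the 3 motifs. Over all 32851 RefSeq promoters of this length, 35.4% held AGGAAG, 10.8% TTGCNNAA and 5.27% TGTGGTT. Among the 14 tested Clec genes with a promoter in the table, 9 held AGGAAG, 5 TTGCNNAA and 2 TGTGGTT. A match is a description of the letters only. RefSeq gave a promoter for 24 of the 30 genes, and the RefSeq starts of all 4 genes shown lie inside the GENCODE spans of these genes.

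Clec5a (chr6:40574894-40585821, minus strand), also known as MDL-1, pairs with the ITAM adaptor DAP12 on monocytes and neutrophils. Its level was 27.5, 47.2 and 98.7 CPM in NT, Low and High of K3174. In K3117 it was 21.1, 35.8 and 90.9 CPM in the same order of labels. The leukemias lay close to each other, and no library of a label overlapped those of another. Clec5a rose 3.93-fold in High against NT (95% confidence interval 3.20 to 4.83, adjusted p = 2.9e-06), and its log2 difference was 0.77 ± 0.13 in Low against NT (adjusted p = 0.0086) and 1.21 ± 0.13 in High against Low (adjusted p = 0.00034).

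Clec4b2 (chr6:123172893-123204671, plus strand) belongs to the Dectin-2 gene cluster. It had 5, 86 and 207 counts in NT, Low and High of K3174 and 0, 5 and 16 counts in NT, Low and High of K3117. In CPM these are 0.219, 2.58 and 6.97 in K3174, and 0, 0.160 and 0.711 in K3117. Its level in NT was at or near the floor in both leukemias, and High of K3174 stood far above the other libraries. The fitted difference of High against NT was 5.20 ± 0.54 on the log2 scale (adjusted p = 5.1e-05), and that of Low against NT was 3.60 ± 0.58 (adjusted p = 0.0054). Both rest on 5 NT counts in all, so that the size of the fold is poorly fixed. High against Low had 1.60 ± 0.37 (adjusted p = 0.027).

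Clec4a2 (chr6:123106428-123143999, plus strand) encodes DCIR, an inhibitory receptor with an ITIM on dendritic cells and other myeloid cells. It was at 5.08, 20.4 and 45.4 CPM in NT, Low and High of K3174, and at 2.53, 3.33 and 17.4 CPM in NT, Low and High of K3117. Both High libraries were above both NT libraries, while the Low libraries were far apart, with that of K3117 near NT. The within-leukemia log2 difference of Low against NT was 1.99 in K3174 and 0.39 in K3117. For High against NT it was 3.14 in K3174 and 2.75 in K3117, and the fitted rise was 7.90-fold (4.94 to 12.6, adjusted p = 5.1e-05). Low against NT gave 1.33 ± 0.31 (adjusted p = 0.040), and High against Low 1.65 ± 0.28 (adjusted p = 0.0052). Clec4a2 shares 2.14% of its 100-base transcript windows with its neighbour Clec4a4, so that reads could be split between them in a small part of the gene.

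Clec12a (chr6:129342691-129365303, plus strand), known as MICL, carries an ITIM, senses uric acid crystals of dead cells, and in humans is a surface marker of acute myeloid leukemia blasts. Its level was 116, 255 and 326 CPM in NT, Low and High of K3174, and 105, 140.2 and 203 CPM in NT, Low and High of K3117. No NT library reached any Low or High library, and Low of K3174 was above High of K3117. The fitted log2 difference was 1.21 ± 0.16 in High against NT (2.32-fold, adjusted p = 0.00026) and 0.77 ± 0.16 in Low against NT (adjusted p = 0.021). High against Low gave 0.44 with an adjusted p of 0.16.

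**Figure D3:**
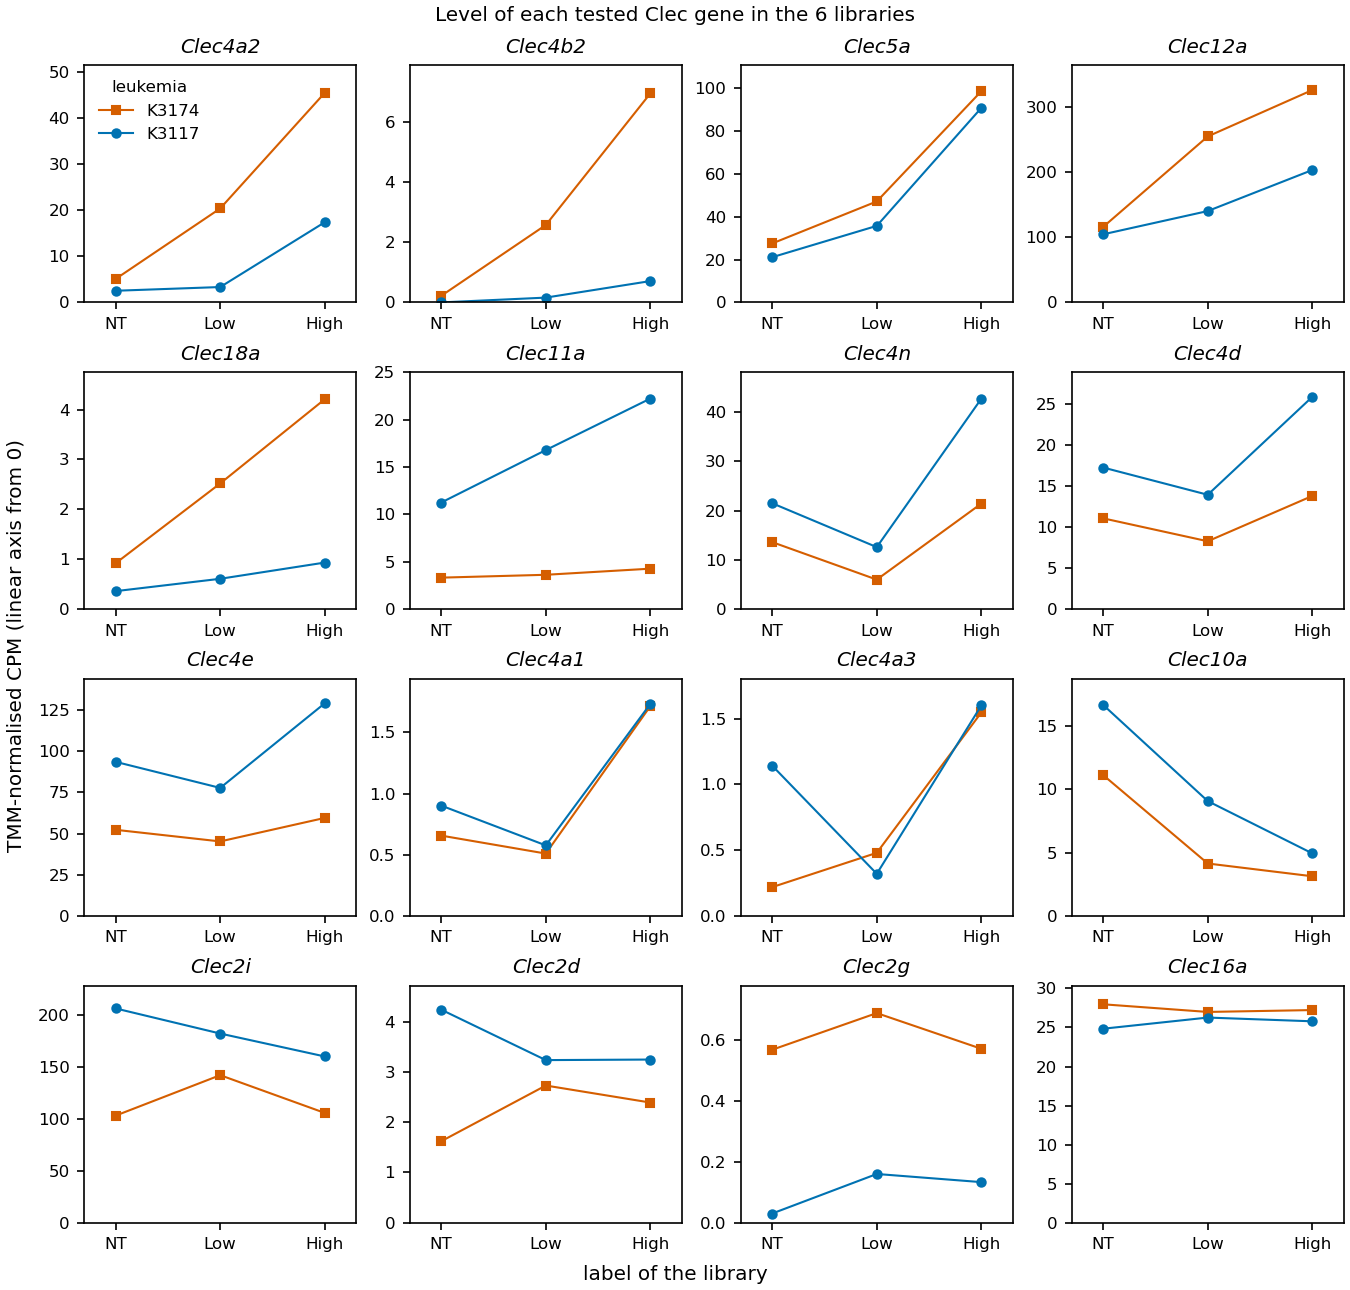
CPM (linear axes from 0) of the 16 tested Clec genes in NT, Low and High, with 1 line per leukemia. Clec5a, Clec12a, Clec4a2 and Clec4b2 are ordered NT, Low, High in both K3174 and K3117, Clec4n has its lowest value in Low in both, and Clec10a is ordered the other way.

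Clec18a and Clec11a encode secreted proteins, and Clec11a, also called stem cell growth factor or osteolectin, acts on blood and bone precursors. Clec18a was at 0.919, 2.52 and 4.21 CPM in NT, Low and High of K3174, and at 0.361, 0.609 and 0.934 CPM in NT, Low and High of K3117. Clec11a was at 3.33, 3.63 and 4.27 CPM in NT, Low and High of K3174, and at 11.3, 16.8 and 22.2 CPM in NT, Low and High of K3117. Both were ordered NT, Low, High in each leukemia. Both High libraries of Clec18a were above both NT libraries, that of K3117 only just, while for Clec11a the labels overlapped, since K3174 was far below K3117 at each label. High against NT gave a log2 difference of 1.86 ± 0.38 for Clec18a (adjusted p = 0.0051) and 0.72 ± 0.21 for Clec11a (adjusted p = 0.033). Neither passed in Low against NT. Clec11a missed the threshold without K3117 NT (adjusted p = 0.26), without K3117 Low (0.053), without K3117 High (0.38) and with upper quartile scaling (0.053), and Clec18a missed it without K3174 NT (0.083) or without K3174 High (0.077).

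Clec4n, Clec4d and Clec4e lie side by side on chromosome 6 and encode Dectin-2, MCL and Mincle, receptors for fungal mannans and mycobacterial glycolipids that signal through the Fc receptor gamma chain. Clec4n (chr6:123229843-123247021) was at 13.6, 6.0 and 21.4 CPM in NT, Low and High of K3174, and at 21.5, 12.6 and 42.7 CPM in NT, Low and High of K3117. In each leukemia Low was the lowest library and High the highest, although High of K3174 was level with NT of K3117. Clec4n rose in High against NT (log2 0.83 ± 0.16, adjusted p = 0.0040), fell in Low against NT (log2 -0.97 ± 0.17, adjusted p = 0.0086) and was higher in High than in Low (1.79 ± 0.17, adjusted p = 0.00014).

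Clec4d (chr6:123262111-123275265) was at 11.1, 8.28 and 13.8 CPM in NT, Low and High of K3174, and at 17.3, 13.9 and 25.9 CPM in NT, Low and High of K3117. Clec4e (chr6:123281789-123289870) was at 52.3, 45.3 and 59.5 CPM in NT, Low and High of K3174, and at 93.6, 77.8 and 129 CPM in NT, Low and High of K3117. Low was lowest, NT in between and High highest for both genes in both leukemias, with K3174 below K3117 at each label. High against Low passed the threshold for Clec4d (0.82 ± 0.16, adjusted p = 0.013) and Clec4e (0.57 ± 0.13, adjusted p = 0.024). Against NT, neither gene passed in High (0.46 and 0.33, adjusted p = 0.081 and 0.10) or in Low (-0.36 and -0.24, adjusted p = 0.37 and 0.51).

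Clec4a1 and Clec4a3, of the DCIR family, lie at the other end of the cluster and were low. Clec4a1 was at 0.657, 0.510 and 1.72 CPM in NT, Low and High of K3174, and at 0.902, 0.577 and 1.73 CPM in NT, Low and High of K3117. Clec4a3 was at 0.219, 0.480 and 1.55 CPM in NT, Low and High of K3174, and at 1.14, 0.320 and 1.60 CPM in NT, Low and High of K3117. For Clec4a1, both High libraries were above all others and the Low ones were the lowest, while Clec4a3 had this order in K3117 but not in K3174. Clec4a1 was higher in High than in Low (1.67 ± 0.39, adjusted p = 0.029), and its High against NT difference of 1.14 ± 0.38 did not pass (adjusted p = 0.061). Clec4a3 passed in no contrast of the labels.

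**Figure D4:**
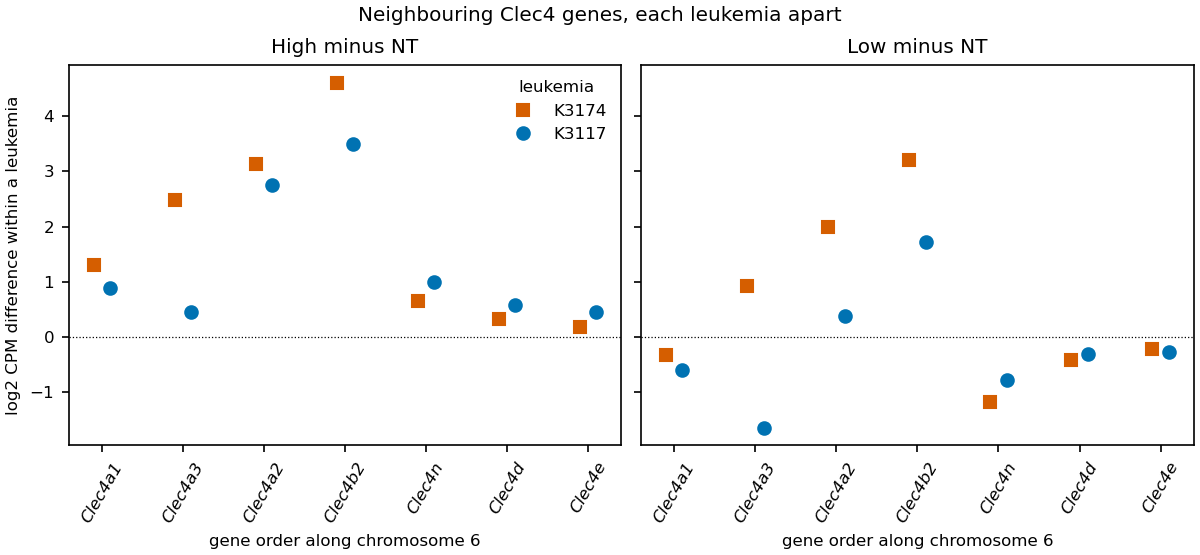
Log2 CPM differences of High minus NT and of Low minus NT within each leukemia (1 point each) for the 7 tested genes of the Dectin-2 cluster, in their order along chromosome 6. For Low minus NT, Clec4a2 and Clec4b2 are above 0 in both leukemias (1.99 and 3.20 in K3174, 0.39 and 1.73 in K3117), while the next gene, Clec4n, is at -1.17 in K3174 and -0.77 in K3117. In K3117 the 95% counting interval of the Low to NT ratio includes 1 for Clec4a2 (0.98 to 1.78) and for Clec4b2 (from 0.976, on 5 counts against 0). The Clec4b2 value of 1.73 becomes 3.35 with a prior count of 0.5.

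The Dectin-2 cluster as a whole holds 9 of the 30 genes within 368 kb (chr6:122921848-123289870), of which 7 were tested. For High against NT all 7 fitted differences were positive and 3 passed, where 10.0% of all tested genes were called higher and 7.32% lower. The share of positive differences over all tested genes was not counted, and the 7 signs were not tested as a set. Clec4b2 entered the test through its Low and High libraries, so its sign is not separate from the filter. For Low against NT the cluster was mixed, with 2 genes higher (Clec4a2 and Clec4b2), 1 lower (Clec4n) and 4 that did not pass, where 2.05% of all tested genes were called higher and 1.29% lower. For High against Low, 6 of the 7 were higher, where 4.12% of all tested genes were called higher and 1.35% lower, and the exception was Clec4a3 (1.95 ± 0.57, adjusted p = 0.080).

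Clec10a (chr11:70156197-70170834, plus strand) encodes MGL1, a galactose-binding receptor of macrophages and dendritic cells. Its level was 11.1, 4.14 and 3.13 CPM in NT, Low and High of K3174, and 16.7, 9.07 and 4.94 CPM in NT, Low and High of K3117. Each High and Low library was below both NT libraries. The summed level of the dendritic cell genes had the same order of labels, while that of the monocyte and macrophage genes was highest in High in both leukemias. The 4 dendritic cell genes lower in High (Flt3, Itgax, H2-Ab1 and Siglech) had this order in both leukemias. Flt3 was at 27.2, 7.23 and 0.337 CPM in NT, Low and High of K3174. Cd74, named because of its values, was at 9.72, 8.7 and 10.2 CPM in NT, Low and High of K3174. In K3117, Cd74 was at 52.9, 27.7 and 28.8 CPM in NT, Low and High. The part of either list in the fall was not tested. Clec10a fell by 1.79 ± 0.21 on the log2 scale in High against NT (adjusted p = 0.00014) and by 1.13 ± 0.20 in Low against NT (adjusted p = 0.011). Its paralog Mgl2, which is not named Clec and binds N-acetylgalactosamine, had 4.86, 13.5 and 28.1 CPM in NT, Low and High of K3174 and 10.2, 25.8 and 50.4 CPM in NT, Low and High of K3117. These paralogs moved in opposite directions, and Mgl2 had a log2 difference of 2.41 ± 0.16 in High against NT (adjusted p = 2.2e-06) and 1.39 ± 0.16 in Low against NT (adjusted p = 0.00070). They share 2.64% of the 100-base windows of Clec10a, so that reads could be assigned to either gene there.

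The Clec2 family encodes ligands of Klrb1 receptors on natural killer cells. Averaged over the 6 libraries, Clec2i had the highest level per length of all Clec genes. Clec12a was above it in K3174 Low (46.1 against 45.7 CPM per kb) and in K3174 High (59.0 against 34.0 CPM per kb). Clec2i was at 103, 142 and 106 CPM in NT, Low and High of K3174, and at 206, 182 and 160.1 CPM in NT, Low and High of K3117. Clec2i fell short of the threshold in every contrast of the labels, and the fitted ratio of High to NT had a 95% confidence interval of 0.707 to 1.11. Clec2i overlaps BC035044 on the opposite strand over 3539 bases, and since use of strand in the counting is not given, reads of the 2 genes cannot be told apart there. Clec2d was at 1.62, 2.73 and 2.39 CPM in NT, Low and High of K3174, and at 4.24, 3.24 and 3.25 CPM in NT, Low and High of K3117. Its interval for High over NT was 0.625 to 1.61. Clec2g stayed below 1 CPM in all libraries and overlaps the antisense gene Gm15987.

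Clec16a, which acts in mitophagy and has no known lectin role, was at 28.0, 27.0 and 27.2 CPM in NT, Low and High of K3174, and at 24.8, 26.3 and 25.8 CPM in NT, Low and High of K3117. The 6 libraries lay close together, and the High to NT ratio had a 95% confidence interval of 0.814 to 1.24. Clec16a overlaps the antisense gene Gm15558, and reads of the pair cannot be told apart where they overlap.

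In Low against NT, 4 of the 16 tested genes rose (Clec4b2, Clec4a2, Clec5a and Clec12a) and 2 fell (Clec10a and Clec4n), where 2.05% of all tested genes were called higher and 1.29% lower. The median log2 difference of the 16 genes was 0.12, against -0.01 over all genes. Without K3174 Low, 1 Low library is left, and none of these calls held. The log2 differences were then all smaller, at 0.52 for Clec4a2, 0.56 for Clec12a, 0.69 for Clec5a, 3.15 for Clec4b2, -0.85 for Clec4n and -0.89 for Clec10a. Without K3174 NT, 1 NT library is left, and the Clec4a2 difference was also smaller (0.86) and its call did not hold. Clec4a2 missed the threshold with DESeq2 as well (adjusted p = 0.32). Without the leukemia block, 0 Clec genes and 0 genes in all passed in edgeR. At an unadjusted p under 0.05, 2 Clec genes were higher and 1 lower, where 950 of all 15812 tested genes had such a p.

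In High against Low, 7 of the 16 rose (Clec4a1, Clec4a2, Clec4b2, Clec4d, Clec4e, Clec4n and Clec5a), where 4.12% of all tested genes were called higher and 1.35% lower. None fell in edgeR or by DESeq2, and the edgeR log2 difference of Clec10a was -0.66 ± 0.22 (adjusted p = 0.12). Without K3117 Low or without K3174 Low, Clec4a1, Clec4b2, Clec4d and Clec4e missed the threshold (adjusted p between 0.074 and 0.50) and the count was 3. Without K3174 High, Clec4a1 (0.17) and Clec4b2 (0.15) missed it, and without K3117 High, Clec4d (0.14) and Clec4e (0.43). Without the block, 0 passed in edgeR. At an unadjusted p under 0.05, 4 were higher and 0 lower, where 1238 of all 15812 tested genes had such a p.

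The leukemias themselves differed in 11 of the 16 genes. In K3174 against K3117, with all labels in the fit, 5 were higher (Clec4b2 by 3.59 ± 0.38, Clec2g by 2.52 ± 0.57, Clec18a by 1.92 ± 0.30, Clec4a2 by 1.69 ± 0.24 and Clec12a by 0.57 ± 0.13 on the log2 scale), where 3.05% of all tested genes were called higher. A further 6 were lower (Clec11a by -2.13 ± 0.17, Clec4e and Clec4n each by -0.91, Clec10a by -0.79, Clec4d by -0.77 and Clec2i by -0.65), where 6.32% of all tested genes were called lower. The summed level of the neutrophil granule genes was higher in K3174 at every label, with 8 of the 10 genes past the threshold. Among the Clec genes that rose in High against NT, Clec4b2, Clec4a2, Clec18a, Clec12a and Clec5a were likewise higher in K3174 at every label. Of these, Clec5a did not pass the threshold (adjusted p = 0.13). Clec4n and Clec11a, which also rose in High, were lower in K3174 at every label. The part of the granule genes in these differences was not tested. Clec10a, Clec12a and Clec2g missed the threshold without K3117 Low (adjusted p = 0.17, 0.17 and 0.087) and without K3174 Low (0.17, 0.14 and 0.12), and Clec2g also with DESeq2 (0.066).

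Of 20 genes for adaptors and signalling proteins below these receptors, all tested, 7 rose and 13 did not pass in High against NT, where 10.0% of all tested genes were called higher and 7.32% lower, and the median log2 difference was 0.36, against -0.01 over all genes. Among the 7 was Fgr, a Src family kinase. It was at 3.02, 3.36 and 17.2 CPM in NT, Low and High of K3174 and at 2.89, 2.60 and 13.2 CPM in NT, Low and High of K3117, and rose by 2.34 ± 0.21 (adjusted p = 2.0e-05). Each High library was above every other library. Prkcd (log2 0.81), Syk (0.58), Vav1 (0.52), Lyn (0.40) and Card9 (0.40) also rose. Fcer1g, which encodes the Fc receptor gamma chain, had -0.35 (adjusted p = 0.095), and Tyrobp, which encodes DAP12, had 0.33 (adjusted p = 0.066).

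Of 45 other genes with a C-type lectin or lectin-like domain, 19 were tested, and 7 of them rose and 4 fell in High against NT, against the same 10.0% and 7.32% over all tested genes, with a median log2 difference of 0.79. Beside Mgl2, these were led by Prg2, the eosinophil granule major basic protein, with 49.6, 71.6 and 538 CPM in NT, Low and High of K3174 and 4.90, 24.0 and 178 CPM in NT, Low and High of K3117. Its levels were ordered NT, Low, High in both leukemias, and its log2 difference was 4.13 ± 0.34 in High against NT (adjusted p = 1.1e-05). Olr1, the oxidised lipoprotein receptor LOX-1, rose in High and in Low against NT (1.5 and 1.14). Ly75 (DEC-205, 1.53) and Cd302 (0.97) rose in High against NT, and Cd72, a B cell inhibitory receptor, fell in High (-3.99) and in Low (-2.95) against NT. In Low against NT, 2 of the 19 rose and 1 fell, and in High against Low 6 rose and 1 fell, against 2.05% higher and 1.29% lower, and 4.12% higher and 1.35% lower, over all tested genes.

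The other 14 Clec genes could not be tested. Clec14a (endothelium), Clec4f and Clec4g (liver macrophages and sinusoidal endothelium), Clec2h and Clec2e had no count in any library. The other 9 (Clec12b, Clec1a, Clec1b, Clec2l, Clec3a, Clec3b, Clec4a4, Clec4b1 and Clec9a) had at most 8 counts in a library and at most 24 in all. Among these are Clec1b, the podoplanin receptor of platelets, and Clec9a, the dead-cell receptor of cross-presenting dendritic cells. Clec7a, the beta-glucan receptor Dectin-1, was outside the 30 genes because the annotation gives it a polymorphic pseudogene biotype. It was at 6.30, 11.7 and 21.1 CPM in NT, Low and High of K3174 and at 15.6, 13.7 and 21.7 CPM in NT, Low and High of K3117. The High libraries were above all others, and the log2 difference of High against NT was 1.04 ± 0.26 (adjusted p = 0.016).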

How the data were processed

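RNA-seq was available for 6 libraries, 3 labels in each of 2 leukemias. Per the labels' protocols, RNA was prepared with an RNeasy kit and read as pairs of 150 bp. The authors deposited whole-number counts per gene, used as deposited. The submitters' processing notes list the build mm10 and the tools kallisto, STAR, STAR-Fusion and DESeq2 but no roles or versions. The counting tool, its annotation and whether strand was used are therefore unknown here. GENCODE M21 (GRCm38) gave symbols, biotypes, positions and exon lengths and matched 99.5% of the IDs, leaving 259 unmatched.

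Counts were fitted in R 4.3.3 with edgeR 4.0.16: expression filter, TMM factors (0.973 to 1.04), and a quasi-likelihood model of label with the leukemia as a block on all 6 libraries (2 residual degrees of freedom, common biological coefficient of variation 12%). Calls needed a p below 0.05 after Benjamini-Hochberg adjustment over 15812 genes. Errors after ± are the SE of the fitted log2 difference. Log2 CPM differences within a leukemia used a prior count of 2. Intervals of a single library's values cover counting error only. The script was tested on simulated data with changes in High alone and no difference between the leukemias, so that test does not cover the pairing. The K numbers come from the titles, and pair the libraries: deviations from the label mean had a correlation over genes of 0.64 for Low with High, 0.57 for Low with NT and 0.44 for High with NT.

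The members, lists and rules were chosen with earlier results of these data known. Values in all libraries are given for each expressed or called Clec gene, and up to 6 called genes per further list and contrast are named. Receptor roles and inhibitory motifs are background knowledge and were not read from protein sequences. Some genes of the further lists are not reported here. The alternatives were DESeq2 1.42.0, other scalings and filters, no block, another prior count and leaving out each library.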

Additional observations from a re-analysis of the deposited data

Results flagged for a closer look

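For 2 of the tested Clec genes, a difference between labels had opposite signs in the leukemias and the counting interval of the ratio did not include 1 in either leukemia. For Clec2d, Low minus NT was 0.73 in K3174 and -0.38 in K3117 on the log2 CPM scale, 1.11 apart. The ratio of Low to NT had a 95% exact binomial interval of 1.14 to 2.54 in K3174 and 0.585 to 0.992 in K3117. For Clec2i, Low minus NT was 0.46 in K3174 and -0.18 in K3117, 0.64 apart, with intervals of 1.31 to 1.45 in K3174 and 0.852 to 0.914 in K3117. Clec4a3 was further apart for Low minus NT, with 0.93 in K3174 and -1.64 in K3117, but its interval in K3174 included 1. The intervals cover counting error only, and none of these differences between the leukemias was tested, since each label has 1 library per leukemia.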

How the results depend on the processing

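No call of a Clec gene changed direction under any of the 12 alternative fits. Of the 365 repeats of the 32 calls, 308 stayed past the threshold. The main counts of genes past the threshold were 2741 for High against NT, 528 for Low against NT, 866 for High against Low and 1481 for K3174 against K3117. Without the replicate block they were 493, 0 and 0 for the contrasts of the labels, with 3142, 950 and 1238 genes at an unadjusted p under 0.05, and 1 Clec gene higher and 0 lower for High against NT, 0 higher and 0 lower for Low against NT, and 0 higher for High against Low, so 20 of 21 Clec calls were lost. The edgeR filter replaced by at least 1 count gave 1071 genes for Low against NT and 1425 for High against Low, with 1 Clec gene lower in the second. A filter of 5 CPM in 2 libraries gave 2 Clec genes higher for Low against NT, 568 genes for High against Low, and 932 genes and 2 Clec genes higher for K3174 against K3117. It removes Clec genes of low level from the test.

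Leaving out each library gave 1927 to 4394 genes and 1 to 2 Clec genes lower for High against NT. Low against NT had 144 to 1483 genes, 0 to 6 Clec genes higher and 0 to 2 lower. High against Low had 335 to 1982 genes, 3 to 9 Clec genes higher and 0 to 2 lower. K3174 against K3117 had 829 to 2642 genes and 3 to 5 Clec genes higher. The lone library of a label is then assumed to vary like the others. Clec4a2 in Low against NT also missed the threshold with library sizes alone (adjusted p = 0.053) and under the 5 CPM filter (0.072), and in High against Low Clec4a1 (0.11) and Clec4b2 (0.059) missed it with DESeq2. Of the genes called in High against NT, 57.8% were higher with TMM, 49.1% with library sizes alone and 43.9% with upper quartile scaling, which moved the median of all genes to -0.11 on the log2 scale. A prior count of 0.5 moved 4 of 96 within-leukemia differences by over 0.5 on the log2 scale, all in K3117, where Clec4b2 and Clec2g had few counts. The cause of the other changes was not tested.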

Other observations

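Cd302, an endocytic lectin, and Vcan, a matrix proteoglycan with a lectin domain, were picked after their values were seen, because their order of labels was that of Clec4n. Cd302 was at 11.1, 7.11 and 20.6 CPM in NT, Low and High of K3174 and at 11.4, 8.27 and 23.6 CPM in NT, Low and High of K3117. Vcan was at 9.63, 6.75 and 20.4 CPM in NT, Low and High of K3174 and at 13.7, 7.95 and 23.9 CPM in NT, Low and High of K3117. Low was lowest and High highest in both leukemias for both genes. High against Low gave log2 differences of 1.52 ± 0.17 for Cd302 (edgeR adjusted p = 0.00035) and 1.59 ± 0.17 for Vcan (edgeR adjusted p = 0.00034), and Low against NT gave -0.55 and -0.66, with adjusted p of 0.12 and 0.070.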
